A study of Mus musculus with 6 samples.

Results

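The genes described are 40 members of the machinery that makes cholesterol and fatty acids: the sterol-sensing transcription factors of the SREBP family and their partners, the enzymes of sterol and fatty acid synthesis, and genes of sterol efflux. They were chosen by symbol from a fixed list of names, and all 40 were found among the 19390 gene symbols of the count table. The list applies no cut on measured values, but it was chosen with earlier results of these data known. RNA was sequenced from splenic γδ T cells, lymphocytes that carry the γδ form of the T cell receptor, which had been sorted from mice aged 6 weeks. All mice carried floxed Usf3 alleles (USF3-f/f); the 3 libraries titled KO were taken as those with CD2-cre, a transgene in which the CD2 promoter drives Cre recombinase in lymphoid cells, and the 3 titled WT as those without it. Cre and the floxed deletion therefore cannot be told apart, and the labels do not say whether the libraries of a group came from separate animals, so p-values measure the spread between these libraries, which may be technical.

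Cells keep their sterol content steady by feedback. When sterol in the endoplasmic reticulum is low, SCAP escorts the SREBP precursors to the Golgi, where proteases free their transcription factor domains; when sterol is plentiful, the INSIG proteins hold SCAP back. SREBP-2, from Srebf2, acts mainly on cholesterol synthesis and uptake, and SREBP-1, from Srebf1, mainly on fatty acid synthesis. The liver X receptors (LXR), which bind oxysterols, drive the opposite arm of sterol efflux. T lymphocytes need both kinds of synthesis to build membrane when they divide, and upstream stimulatory factors (USF), the family that Usf3 is related to, bind the E-box CACGTG, a sequence that SREBP can also bind.

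Usf3, the targeted gene, was at 70.2, 72.7 and 73.8 CPM (deposited counts relative to a TMM-adjusted library size) in WT replicates 1, 2 and 3 and at 72.0, 65.9 and 67.5 in KO replicates 1, 2 and 3. The groups overlapped, and the log2 fold change of -0.076 was not called (adjusted p = 0.262, edgeR). The floxed exons are not named in the labels. Counts summed over all exons of Usf3 are therefore no check of the genotype, and the groups are called WT-labelled and KO-labelled. Library totals ran from 34644862 to 35806402 counts. T cell markers were abundant, with Thy1 at a mean of 1514 CPM in WT. On a list of γδ subset markers Il2rb was abundant (2224 CPM), while Sox13 was low (4.36 CPM). Of 6 of these tested, 2 fell, Blk and Maf (log2 fold changes -1.15 and -0.62), and 4 were not called, among them Zbtb16, which lay wholly above WT (1.07, adjusted p = 0.0997). The γδ receptor genes were not analysed here. Of 4 αβ T cell markers, Cd8a rose (0.40), while Cd8b1, Cd28 and Cd4 were at -0.021, -0.019 and -0.17 and were not called. Of 29 marker genes of other cell types with a row, 8 reached the level needed for testing, and the sum over the 29, mostly Pecam1, was 76.9 to 85.0 CPM in WT-labelled and 61.2 to 62.7 CPM in KO-labelled libraries. In bulk RNA, fewer cells of a type and less RNA per cell cannot be told apart.

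To show the stretches through which these genes may be regulated, 6 promoters are printed as the 250 bases before the RefSeq start of the gene, in the gene's own direction, from build GRCm38.p6. Capitals mark every match on either strand to CACGTG (the E-box), TCACNCCAC (a sterol response element, the site SREBP is known for) or CCAAT (the box bound by NF-Y, a usual partner of SREBP, which reads ATTGG on the other strand). The first 4 belong to genes that were lower in KO-labelled libraries, among them Elovl6, the called member with the largest fall, and the last ones to genes that hold an E-box but were not called:
Insig1, chr5:28071162-28071411, plus strand: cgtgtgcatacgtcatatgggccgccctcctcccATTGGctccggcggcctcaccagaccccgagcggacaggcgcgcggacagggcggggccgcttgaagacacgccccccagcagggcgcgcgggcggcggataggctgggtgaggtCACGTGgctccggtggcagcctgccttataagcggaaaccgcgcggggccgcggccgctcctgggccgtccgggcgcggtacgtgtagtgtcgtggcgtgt
Hmgcs1, chr13:119690101-119690350, plus strand: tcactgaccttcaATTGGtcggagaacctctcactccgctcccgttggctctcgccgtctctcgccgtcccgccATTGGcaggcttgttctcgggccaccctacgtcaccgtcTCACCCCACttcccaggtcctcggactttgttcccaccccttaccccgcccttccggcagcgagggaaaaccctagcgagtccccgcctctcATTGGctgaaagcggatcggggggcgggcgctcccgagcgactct
Sc5d, chr9:42264301-42264550, minus strand: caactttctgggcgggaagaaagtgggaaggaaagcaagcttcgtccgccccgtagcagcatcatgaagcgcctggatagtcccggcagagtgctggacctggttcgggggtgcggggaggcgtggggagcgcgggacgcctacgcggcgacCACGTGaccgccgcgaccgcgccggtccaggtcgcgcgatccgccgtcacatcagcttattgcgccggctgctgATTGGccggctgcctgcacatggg
Elovl6, chr3:129532136-129532385, plus strand: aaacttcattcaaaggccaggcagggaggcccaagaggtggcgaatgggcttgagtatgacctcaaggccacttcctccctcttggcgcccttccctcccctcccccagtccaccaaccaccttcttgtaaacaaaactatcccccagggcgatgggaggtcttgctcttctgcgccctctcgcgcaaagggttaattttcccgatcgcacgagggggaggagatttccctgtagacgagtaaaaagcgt
Elovl5, chr9:77917115-77917364, plus strand: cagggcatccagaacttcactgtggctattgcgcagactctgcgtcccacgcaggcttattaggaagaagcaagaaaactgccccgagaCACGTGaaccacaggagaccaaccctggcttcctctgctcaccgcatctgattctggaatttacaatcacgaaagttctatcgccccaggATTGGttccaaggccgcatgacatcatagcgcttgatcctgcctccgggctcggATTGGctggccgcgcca
Hsd17b7, chr1:169969206-169969455, minus strand: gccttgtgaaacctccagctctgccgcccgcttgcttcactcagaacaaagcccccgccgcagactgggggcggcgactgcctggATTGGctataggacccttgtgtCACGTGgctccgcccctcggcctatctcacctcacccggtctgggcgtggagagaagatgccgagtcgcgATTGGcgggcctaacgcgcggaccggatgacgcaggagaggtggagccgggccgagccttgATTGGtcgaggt

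The E-box of Insig1 begins 101 bases before the start, that of Sc5d 98, that of Hsd17b7 143 and that of Elovl5 161 bases before it. The Hmgcs1 promoter has no E-box in this window, but holds the sterol response element 137 bases before the start and 3 CCAAT boxes. The Elovl6 window holds none of the 3 motifs. RefSeq had a promoter for 32 of the 40 members, some with several starts. Over these genes, with any start counted, an E-box was found in 7 (21.9%), against 6.86% of all 27025 genes with a RefSeq promoter entry, a CCAAT box in 24 (75.0%), against 37.5% of all genes, and a sterol response element in 1, Hmgcs1 (3.13%, against 1.23%). The 27025 genes were not limited to those tested here. Nor were they matched for the number of starts, which was 32851 for them and 42 for the 32 members. The E-box was in 2 of the 11 called members with a promoter and in 5 of the 21 others, and the CCAAT box in 8 and 16 of them, respectively. A match is a description of the letters, not evidence that a factor binds there. Only these exact letters were searched, within 250 bases before a start. A missing match therefore does not show that a gene lacks such a site.

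The comparison of KO-labelled with WT-labelled cells asks how these genes differ where Usf3 was targeted. All 40 members had enough counts to be tested; 15 fell, 0 rose and 25 were not called (edgeR, adjusted p under 0.05 by Benjamini and Hochberg, with 12810 genes tested). DESeq2 also called 15, of which 0 were higher. Without an adjustment for testing many genes, 22 members had p under 0.05, of which 1, Acly, was higher. Of all tested genes 10.1% were called lower and 7.23% higher, 17.3% in all, so that the members' 37.5% called lower stands beside a background of 10.1%. These shares were not matched for count depth, on which a call depends. Each called member had at least 560 counts in every library, while the tested genes include some with few, such as Nr1h3 with 5 to 20. The fitted log2 fold change was below 0 in 38 of 40 members, with a median of -0.12, where the median over all tested genes was 0.0014. The 15 called members ranged in log2 fold change from -0.12 (Acaca) to -0.40 (Elovl6), and 5 of them changed by at least 1.2-fold. In CPM, the 3 KO-labelled libraries lay wholly below the 3 WT-labelled ones in 21 members and wholly above in 1, Acly. Over all tested genes 16.7% lay wholly below and 15.5% wholly above. Summed over the 40 genes, the level was 6697 to 6791 CPM in WT-labelled and 6306 to 6357 CPM in KO-labelled libraries, and was lower by 6.32% on average. Changes of this size were also seen in T cell identity genes: 4 of 8 T cell markers fell (median log2 fold change -0.065), and Cd3g changed by -0.17. Their part in the result was not tested.

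**Figure D1:**
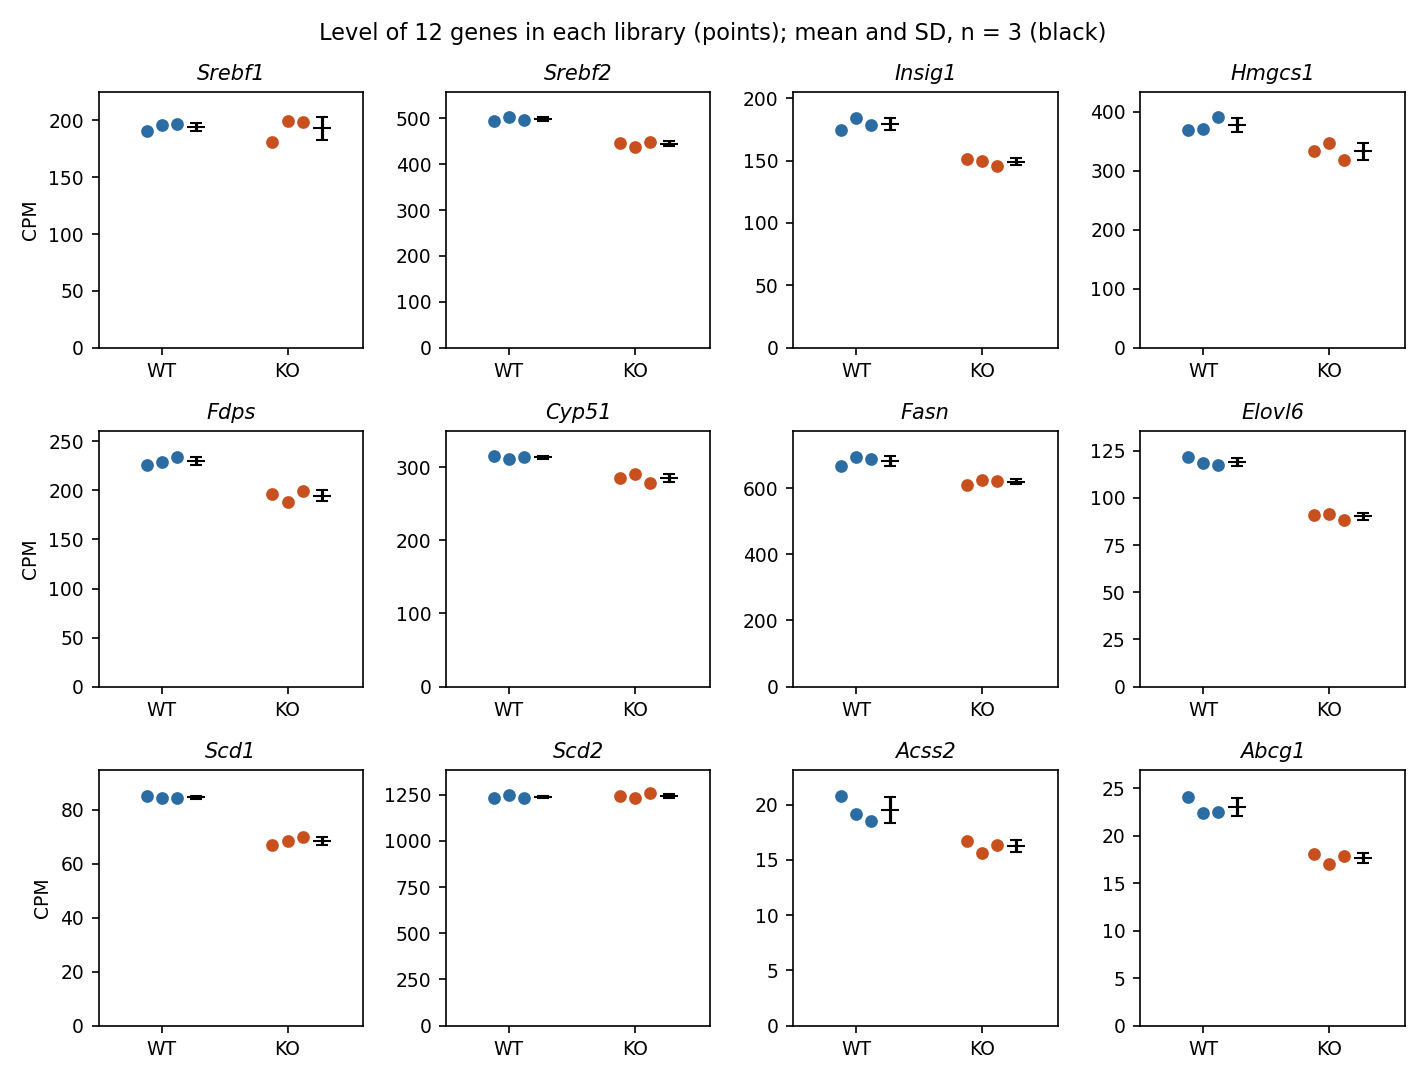
Level in CPM (vertical axis, from 0) of 12 of the 40 genes in each WT-labelled (blue) and KO-labelled (orange) library, with the mean and SD of each group (n = 3) in black. Srebf1 and Scd2 overlap between the groups, while the other 10 genes shown lie lower in every KO-labelled library.

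The regulators differed from one another. Srebf2, the gene of SREBP-2, stood at 495, 503 and 495 CPM in the WT-labelled libraries and at 447, 438 and 449 CPM in the KO-labelled ones. Every KO-labelled library was below every WT-labelled one, with a fall of 10.7% (95% interval -13.6% to -7.67%; log2 fold change -0.16 ± 0.023, SE; adjusted p = 1.40e-05). Srebf1, the gene of SREBP-1, was at 190.5, 196 and 197 CPM in WT and at 181, 199.6 and 199 CPM in KO. Its groups overlapped, with KO replicate 1 lowest and KO replicates 2 and 3 highest, and the interval of its change, from -5.40% to 4.38%, holds 0 (adjusted p = 0.900). Insig1, whose protein retains SCAP and whose own transcription is driven by SREBP, was at 174, 184 and 179 CPM in WT and at 151, 149.9 and 146 CPM in KO. The groups did not overlap and Insig1 fell by 16.9% (log2 fold change -0.27 ± 0.031, SE; adjusted p = 1.04e-06). Its promoter, shown above, holds an E-box and a CCAAT box, as do 3 others of the 6.

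Insig2, the second retention gene, was far less abundant, with 13.4, 14.1 and 13.7 CPM in WT and 12.8, 12.04 and 12.2 CPM in KO. Its KO-labelled libraries were also all below the WT-labelled ones, but the change of -10.1% did not pass (adjusted p = 0.234). Scap, the escort gene, was at 129, 138 and 138 CPM in WT and 130.2, 127 and 129 CPM in KO, overlapping and not called (adjusted p = 0.184). Whether the paralogs moved unequally was examined by their ratio within each library, a comparison chosen after the values were seen, from deposited FPKM, which divide a count by the gene length and the library total. Srebf2 stood to Srebf1 as 2.30, 2.28 and 2.23 to 1 in WT and as 2.19, 1.94 and 2.00 to 1 in KO, and Insig1 to Insig2 as 34.5, 34.7 and 34.7 to 1 in WT and as 31.3, 33.0 and 31.7 to 1 in KO. Both ratios were lower in every KO-labelled library. A two-sided exact permutation test gave p = 0.1 for each, the smallest p that 3 libraries against 3 allow (adjusted over 3 ratios, 0.1).

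The machinery that cleaves or degrades these proteins showed no call. Of 11 tested genes on a list of SREBP processing and degradation, 0 rose and 0 fell (edgeR; 0 at an unadjusted p under 0.05 as well, and 0 called by DESeq2), and the median log2 fold change was -0.014. The list includes the site-1 and site-2 protease genes Mbtps1 and Mbtps2, at -0.060 and 0.10.

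In the mevalonate steps that lead from acetyl-CoA to squalene, 2 of 8 members fell and the other 6 had log2 fold changes between -0.12 and -0.012. Hmgcs1, which encodes the synthase that makes HMG-CoA, was at 369, 370.4 and 391 CPM in WT and at 333, 346 and 319 CPM in KO, a fall of 11.7% (log2 fold change -0.18 ± 0.030, SE; adjusted p = 0.000110). Fdps, which encodes the synthase of farnesyl diphosphate, the branch point to sterols and protein prenylation, was at 226, 229 and 234 CPM in WT and at 196, 188 and 199 CPM in KO. It fell by 15.3% (log2 fold change -0.24 ± 0.029, SE; adjusted p = 1.87e-06). In both genes the groups did not overlap. In the GRCm38 annotation, stretches of Fdps match 4 genes elsewhere at 96.1% to 98.9% identity. Exons of Fdps also overlap another gene on the same strand over 1124 bases, and exons of Hmgcs1 overlap another gene on the opposite strand. Reads may be shared with these genes.

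The other mevalonate genes were not called. The kinase genes Mvk and Pmvk and the decarboxylase gene Mvd changed by -0.859%, -4.00% and -4.57%, with intervals that reach from -11.2% to 7.86% among them. Fdft1, the squalene synthase gene, changed by -4.76%, and Acat2, the cytosolic thiolase gene, by -5.68%. Idi1, the isomerase gene, was at 101, 102 and 106 CPM in WT and at 93.8, 104 and 85.8 CPM in KO. KO replicate 2 alone lay within the WT range, and the fall in Idi1 passed only without it (log2 fold change -0.20, adjusted p = 0.000997) or with no filter on low counts (adjusted p = 0.0164), against 0.0959 with all libraries.

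From squalene to cholesterol, 4 of 10 members fell. Sqle, the squalene epoxidase gene and the second control point of the pathway, was at 170.0, 169 and 169.6 CPM in WT and at 155, 152 and 153 CPM in KO (-9.55%, adjusted p = 0.000961). Cyp51, the lanosterol demethylase gene, was at 315, 311 and 314 CPM in WT and 286, 290.0 and 279 CPM in KO (-9.12%, adjusted p = 0.000396). Msmo1, the sterol C4-methyl oxidase gene, was at 93.5, 97.5 and 97.4 CPM in WT and at 86.0 CPM in each KO-labelled library (-10.5%, adjusted p = 0.00287). Sc5d, the desaturase gene whose promoter with an E-box is shown above, was at 114, 117 and 120.1 CPM in WT and at 102, 109 and 101 CPM in KO (-11.3%, adjusted p = 0.00194). None of these 4 genes overlapped between the groups.

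The other enzyme genes from squalene to cholesterol did not pass. Ebp, the sterol isomerase gene, and Dhcr7, the gene of the last reductase, changed by -0.192% and -0.503%, with intervals from -5.93% to 5.89% and from -6.72% to 6.13%, and the sign of both flips under upper-quartile and total-count scaling. Lss, the lanosterol synthase gene, changed by -3.22%, Nsdhl by -4.37% and Hsd17b7, which also carries an E-box, by -7.63%. Hsd17b7 passed only without KO replicate 2 (adjusted p = 0.0315, against 0.119). Tm7sf2, a sterol reductase gene at 9.13 CPM in WT, changed by -14.9%, and its interval reached from -27.2% to -0.575% (adjusted p = 0.157); intervals are not adjusted for the number of genes. Stard4, the gene of a soluble sterol carrier, was at 219, 215 and 218 CPM in WT and at 215, 214 and 204.5 CPM in KO. All KO-labelled libraries were just below WT in CPM, without passing (-2.85%, adjusted p = 0.371). In FPKM the groups overlapped, with KO replicate 1 at 39.7 and WT replicate 2 at 39.3.

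**Figure D2:**
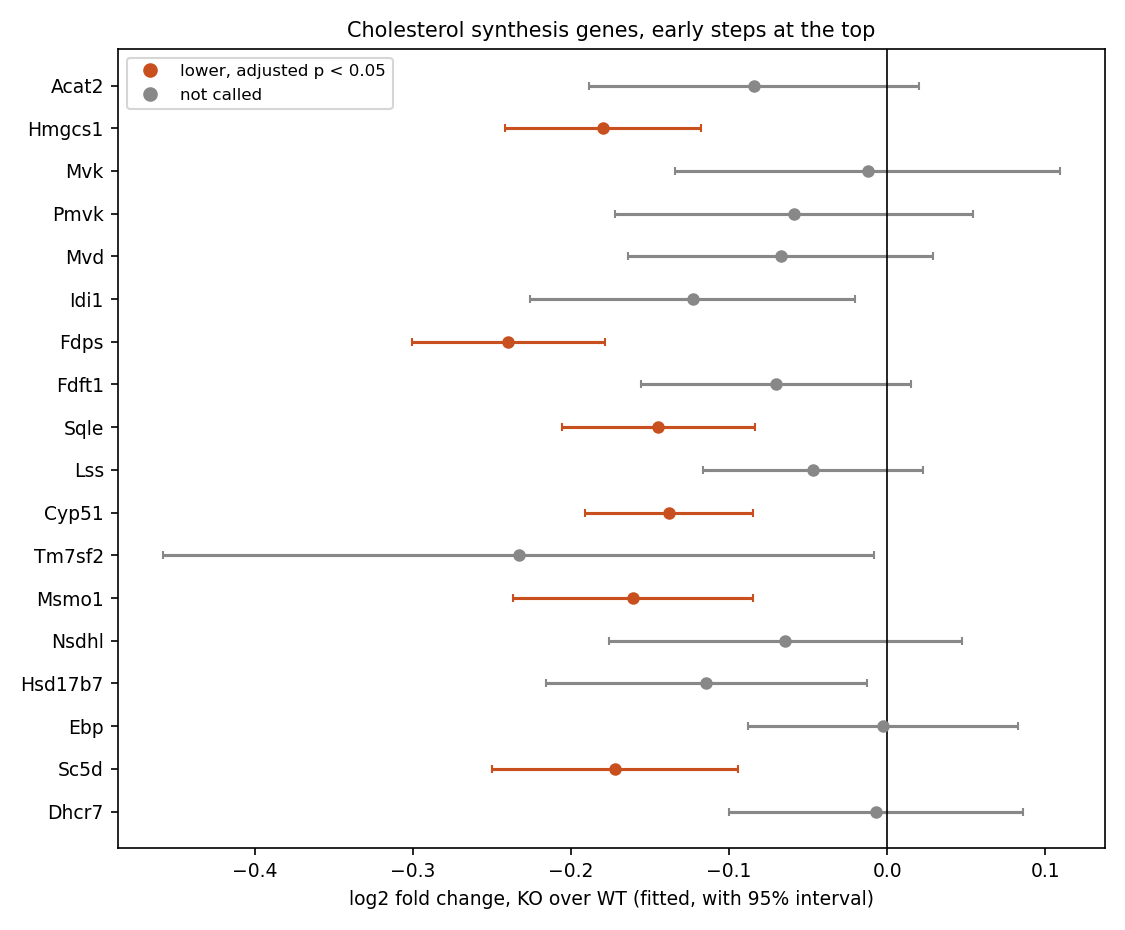
Fitted log2 fold change of KO-labelled over WT-labelled libraries with its 95% interval for the 18 cholesterol synthesis genes among the 40 in the order of the pathway, early steps at the top; orange points were called lower and grey points not. The called genes lie between -0.24 (Fdps) and -0.14 (Cyp51). Along the pathway they alternate with genes that were not called, which run from -0.23 (Tm7sf2) to near 0 (Mvk, Ebp and Dhcr7).

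The supply of acetyl-CoA and NADPH held members of opposite sign. Acly, which encodes the citrate lyase that makes cytosolic acetyl-CoA from citrate, was at 443, 459 and 447 CPM in WT and at 471, 469 and 463 CPM in KO, all KO-labelled libraries above WT. Its change of 3.94% did not pass with all libraries (adjusted p = 0.115), but did without KO replicate 3 (adjusted p = 0.0482). Acss2, which makes acetyl-CoA from acetate, was at 20.8, 19.2 and 18.5 CPM in WT and at 16.7, 15.6 and 16.3 CPM in KO. The groups did not overlap and Acss2 fell by 16.7% (log2 fold change -0.26 ± 0.074, SE; adjusted p = 0.0143), a call that was lost without WT replicate 1 (adjusted p = 0.0966). Me1, the malic enzyme gene, had only 75 to 125 counts per library, and its interval of -39.1% to 14.8% leaves its change undetermined at this depth.

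Fatty acid genes held the called member with the largest fall. Of 9 members of synthesis, elongation and desaturation, 5 fell. Elovl6, which elongates saturated and monounsaturated chains, was at 121, 118 and 117 CPM in WT and at 91.0, 91.4 and 88.0 CPM in KO. It fell by 24.2% (95% interval -28.0% to -20.3%; log2 fold change -0.40 ± 0.035, SE; adjusted p = 1.10e-08), with a wide gap between the groups. In the GRCm38 annotation, 805 aligned bases of Elovl6 match a gene elsewhere at 97.4% identity, so reads may be shared with it. Scd1, a stearoyl-CoA desaturase gene, was at 85.3, 84.4 and 84.3 CPM in WT and at 66.9, 68.4 and 69.8 CPM in KO, and fell by 19.2% (log2 fold change -0.31 ± 0.039, SE; adjusted p = 2.60e-06).

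Scd2, the other desaturase gene of this kind, was the most abundant member by FPKM (a mean of 226 in WT) and was not called. It was at 1234, 1246 and 1235 CPM in WT and at 1243, 1233 and 1256 CPM in KO, overlapping, with an interval from -2.29% to 3.32% (adjusted p = 0.861). The ratio of Scd2 to Scd1 in FPKM was also chosen after the values were seen. It was 12.8, 13.1 and 13.0 in WT and 16.5, 16.0 and 16.0 in KO, higher in every KO-labelled library (two-sided exact permutation p = 0.1, the smallest possible). Transcripts of Scd1 and Scd2 share a stretch of 623 aligned bases at 95.5% identity, so some reads may be assigned to the wrong copy.

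Fasn, the fatty acid synthase gene, was at 666, 694 and 688 CPM in WT and at 610.0, 625 and 620.0 CPM in KO (-9.42%, adjusted p = 7.33e-05). Fads2, the first desaturase gene of polyunsaturated fatty acids, was at 158, 158 and 159 CPM in WT and at 145, 143 and 142 CPM in KO (-9.45%, adjusted p = 0.00136). Both genes were lower in every KO-labelled library. Acaca, the acetyl-CoA carboxylase gene of the committed step, fell by 8.06% (adjusted p = 0.0117), and its call was lost without WT replicate 1 (adjusted p = 0.054), without WT replicate 3 (adjusted p = 0.0719) and on FPKM by limma-trend (adjusted p = 0.0836 with a pseudocount of 1). Elovl1, an elongase gene for very long chains, lay wholly below WT without passing (-6.36%, adjusted p = 0.0574). Elovl5, the elongase gene of polyunsaturated chains, and Fads1 changed by -3.96% and -3.68% and were not called.

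**Figure D3:**
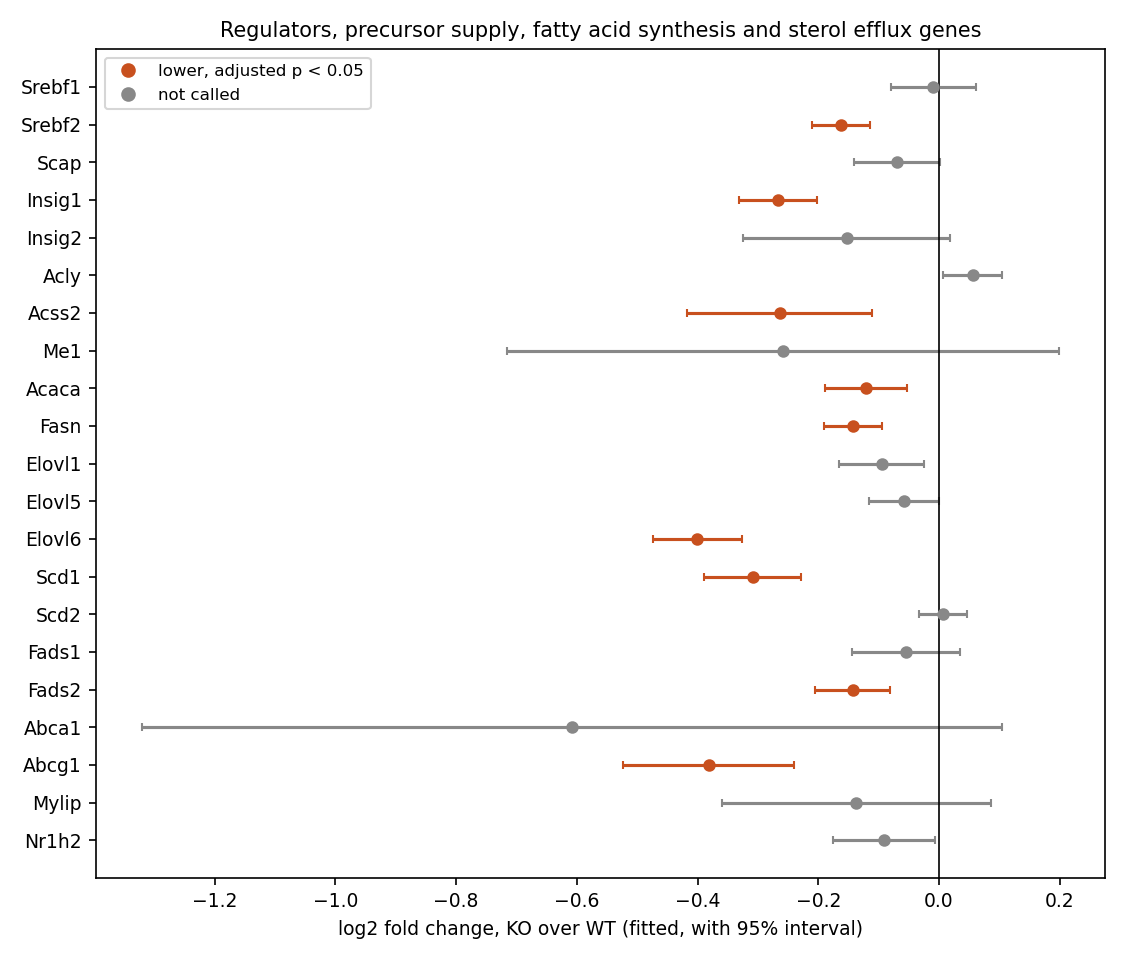
Fitted log2 fold change of KO-labelled over WT-labelled libraries with its 95% interval for regulators, precursor supply, fatty acid and sterol efflux genes; orange points were called lower and grey points not. Elovl6, Abcg1 and Scd1 lie furthest below 0 among the called genes, Scd2 and Srebf1 lie at 0, and the widest intervals belong to Abca1 and Me1, the genes with the fewest counts.

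Of 4 genes of sterol efflux and the LXR arm, 1 fell and 0 rose. Abcg1, a sterol exporter gene and LXR target, was at 24.1, 22.4 and 22.5 CPM in WT and at 18.1, 17.1 and 17.9 CPM in KO. The groups did not overlap, and Abcg1 fell by 23.2% (95% interval -30.4% to -15.3%; log2 fold change -0.38 ± 0.068, SE; adjusted p = 0.000260). Abca1, the second exporter gene, had only 19 to 81 counts per library and was not called (-34.4%, interval -59.9% to 7.45%). Its log2 fold change of -0.61 depends on single libraries: it was -0.28 without KO replicate 3, -0.33 without WT replicate 2 and -0.94 without KO replicate 2. Mylip, which encodes an LXR-induced ubiquitin ligase, and Nr1h2, the gene of LXRβ, lay wholly below WT and changed by -9.06% and -6.12% without passing. Both exporters are also abundant in macrophages. Of 6 monocyte or macrophage markers with a row, Csf1r, Adgre1, Cd14 and Lyz2 had at most 14 counts in any library, and Cd68 fell (log2 fold change -0.43). The summed level of these 6 markers was 7.17 to 9.92 CPM in WT and 6.00 to 6.74 CPM in KO; its part in the fall of Abcg1 was not tested.

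Of 67 companion genes of the pathway, 65 had a row and 55 were tested; these were lower in 10 and higher in 3 (edgeR), or 18.2% and 5.45% beside the background of 10.1% and 7.23%; their median log2 fold change was -0.019. Sterol uptake, storage and transport had 4 of 12 lower and 1 higher. Soat2, which esterifies cholesterol, fell by 27.8% from 27.9 CPM, while its more abundant paralog Soat1 changed by 4.59% and was not called. Npc2, a lysosomal sterol carrier gene, fell by 17.6%, whereas Npc1, its membrane partner, chosen here after its value was seen, rose by 11.2% (adjusted p = 0.00167). Osbpl8, also on this list, fell by 15.9%. The call of Osbpl8 was lost on FPKM by limma-trend (adjusted p = 0.0557 with a pseudocount of 1), and without KO replicate 3, its lowest library, the log2 fold change went from -0.25 to -0.16.

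Among other fatty acid genes, 3 of 20 fell and 1 rose. The acyl-CoA synthetase genes Acsl5 and Acsl1 moved in opposite directions, by -10.9% from 421 CPM and by 24.0% from 13.4 CPM (adjusted p = 2.22e-05 and 0.00656), and Mlxip, a glucose-responsive transcription factor gene, fell by 14.5%. Lpin1, a phosphatidate phosphatase gene, fell by 13.0%. In the LXR and oxysterol list, Rxra, the gene of the receptor that pairs with LXR, was at 55.2, 55.8 and 53.1 CPM in WT and 67.8, 69.7 and 68.6 CPM in KO, a rise of 25.7% (adjusted p = 3.38e-06), and the exporter gene Abca7 fell by 8.27% (adjusted p = 0.0236). The call of Abca7 was lost without WT replicate 2 (adjusted p = 0.130), WT replicate 3 (0.0576) or KO replicate 1 (0.115), and on FPKM (0.0702). Nr1h3, the gene of LXRα, had 5 to 20 counts per library, against 2705 to 3084 for Nr1h2. Of the E-box factor genes of the USF family, Usf1 and Usf2 changed by -5.40% and -8.95% and were not called (adjusted p = 0.355 and 0.0775).

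By level per length, the members spanned a wide range in WT: after Scd2 came Fdps at 157 FPKM, Srebf2 at 89.5 and Hmgcs1 at 89.1, and at the other end stood Insig2 at 1.95, Me1 at 0.792 and Abca1 at 0.165. The levels of Srebf2 and Hmgcs1 differed by less than the spread of Hmgcs1 between libraries (SD 2.58 FPKM, n = 3). Called members were found from 3.94 FPKM (Abcg1) to 157 FPKM (Fdps), and each had at least 560 counts in every library. For 20 of the 25 members that were not called, the 95% interval excludes a fall of 20% or more. The other 5 are Insig2, Tm7sf2, Me1, Abca1 and Mylip, whose intervals reach a fall of that size. Among the called members, however, only Elovl6 and Abcg1 fell that far. Smaller falls are not excluded in several members that were not called. The intervals of Idi1 (-14.5% to -1.40%) and Acat2 (-12.3% to 1.39%) hold the change of the called gene Sqle (-9.55%), while that of Ebp (-5.93% to 5.89%) does not.

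**Figure D4:**
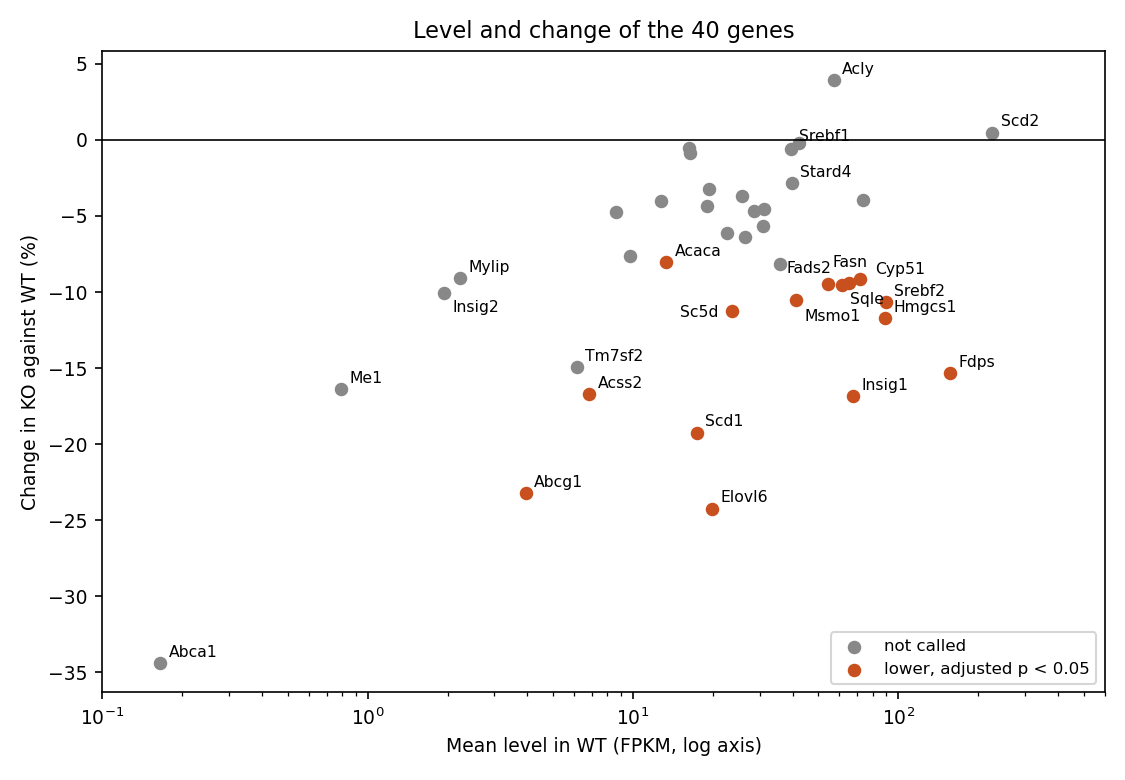
Mean WT level in FPKM (log axis) against the fitted percent change in KO-labelled libraries for the 40 genes; orange points were called lower and grey points not. All called genes lie between -8.06% and -24.2%, and the lowest-level genes Abca1 and Me1 show large changes that were not called.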

How the data were processed

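Gene counts and FPKM were deposited by the authors for 6 libraries of total RNA, as 1 table each. The deposited counts are raw whole numbers per gene symbol, and the FPKM deposited by the authors equal those counts over the column total and 1 fixed length per gene (tolerance 0.01 bp, 17510 genes that could be checked). Per the submitters' processing notes, fastp, HISAT2, HTSeq and the build GRCm39 were used; no version, annotation or strand setting is named there. Reads of overlapping genes may therefore be mixed. GENCODE M21 (GRCm38) was used only to look for overlapping genes and near-copies. There, exons of 13 members overlap another gene, 4 of them called (Acss2, Cyp51, Fdps and Hmgcs1). With a gene whose exons do not overlap theirs, 9 members share at least 300 bases at 95% identity or more, 4 of them called (Acaca, Elovl6, Fdps and Scd1).

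KO was compared with WT over all genes by edgeR 4.0.16 under R 4.3.3 (filterByExpr, TMM, glmQLFit and glmQLFTest), with Benjamini-Hochberg adjustment over 12810 genes; filtered genes held 0.0366% of counts. CPM use TMM-scaled library sizes. Standard errors (SE) were derived from the fold change and its F statistic. The spread between libraries beyond counting error was 4.16% (biological coefficient of variation), and the scripts were tested on simulated counts. No library repeated another: within a group, chi-square per degree of freedom was 3.21 to 6.94. Promoters are from RefSeq, build GRCm38.p6. Some companion and marker genes are counted in their lists but not reported here by name.

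Per-library values are given for the SREBP regulators and, in each other role, for the called members, at most 4, or else the one ranked first by p; other called members are given by change, and up to 3 called companion genes per list. Values of members that were not called, such as Scd2 and Idi1, of Lpin1 and Osbpl8, and some companion genes were chosen after they were seen. Members and lists were chosen with earlier results of these data known. Results were recomputed with DESeq2 1.42.0, with limma 3.58.1 (voom, and limma-trend on log2 FPKM), with 3 other scalings (total count, upper quartile, RLE), other filters, a replicate block, a stricter threshold and each library left out.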

Additional observations from a re-analysis of the deposited data

How the results depend on the processing

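Under 11 settings with all libraries, 13 to 16 members were lower and 0 higher. With 1 library left out, 13 to 17 were lower and 0 to 1 higher, the 1 being Acly without KO replicate 3; of the 15 calls, 13 held under all 16 alternatives other than the stricter threshold, the exceptions being Acaca and Acss2. Companion genes were lower in 8 to 11 and higher in 3 to 4. The members' median log2 fold change ran from -0.12 to -0.090, the latter on log2(FPKM + 1) by limma-trend, a fit that leaves out Abca1 and Me1, and from -0.14 to -0.098 with 1 library left out.

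Signs turned only in members that were not called. By upper-quartile scaling Srebf1, Ebp and Dhcr7 were at 0.00143, 0.00798 and 0.00343, by total counts at 0.000527, 0.00701 and 0.00243, and Ebp and Dhcr7 were at 0.00747 and 0.00347 on log2(FPKM + 0.1) and at 0.0073 and 0.00324 on log2(FPKM + 1). With 1 library left out, Srebf1 ran from -0.033 to 0.036, Mvk from -0.047 to 0.013, Ebp from -0.032 to 0.022 and Dhcr7 from -0.027 to 0.038; the cause was not tested.

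Same-numbered libraries did not deviate together (correlations 0.055, -0.022 and -0.039), so the numbers were not taken as pairs. With the replicate block, 15 members were lower and 0 higher with a median of -0.12, companion genes were lower in 10 and higher in 3, and Usf3 was at -0.077. Usf3 was not called in any setting (-0.11 to -0.049).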
